A study of Mus musculus with 8 samples.

Results

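The genes described here encode the classical MHC class I molecules and the machinery that supplies them with peptides. They are the heavy chains H2-K1 and H2-D1, the light chain B2m, the loading genes Tap1, Tap2 and Tapbp, the immunoproteasome subunits Psmb8, Psmb9 and Psmb10, and the transactivator Nlrc5. The 10 genes were chosen by symbol from the 26667 genes of the count table, with their levels in these KP and KPH2 tumours already known from earlier results, and all 10 passed the filter on low counts. The levels that informed the choice are therefore given as a description. No p-value is given for any of the 10, and nothing is read from how many of them passed a threshold. RNA-seq was performed on undifferentiated pleomorphic sarcomas (UPS) of the hind limb, 4 from KP and 4 from KPH2 mice, with 1 library per tumour. KP mice (Trp53 fl/fl) and KPH2 mice (Trp53 fl/fl, Epas1 fl/fl) shared a mixed 129/C57BL/6 background, were of both sexes and were 8 weeks old or older when adenovirus expressing Cre recombinase was injected into the hind limb musculature. Tumours were collected 7 weeks later or at the maximal permitted size, so that loss of p53 was common to both groups and loss of HIF-2α (encoded by Epas1) was particular to KPH2. Cre was delivered by the virus to the injected muscle, and recombination was not measured by cell type here. The KP tumours are numbered 5 to 8 and the KPH2 tumours 1 to 4. The authors left 1 knockout tumour out of their statistics as a technical outlier, and KPH2 1 is the tumour missing from their table of 7, so it is shown apart here and the comparisons are between KP 5 to 8 and KPH2 2 to 4.

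MHC class I molecules display peptides from inside a cell to CD8+ T cells. Proteasomes cut cytosolic proteins into peptides, the TAP1-TAP2 transporter carries them into the endoplasmic reticulum, and tapasin (Tapbp) holds the transporter next to empty class I molecules until a peptide binds. Interferon-γ induces the catalytic subunits Psmb8, Psmb9 and Psmb10, which replace Psmb5, Psmb6 and Psmb7 of the constitutive proteasome and change the peptides made. NLRC5 has no DNA-binding domain that reads class I promoters by itself and acts there through factors bound to the X and Y boxes.

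Total counts ran from 6463221 to 13155510 per tumour. Epas1 stood at 59.2 to 86.9 CPM (counts scaled to a library of 1e+06) in KP tumours, 37.7 to 53.4 CPM in KPH2 2 to 4 and 32.6 CPM in KPH2 1, so its transcripts were lower in each KPH2 tumour but were not lost. Mesenchymal genes were abundant in all 8 tumours, with summed levels of the 8-gene list between 17875 and 42448 CPM, and the keratinocyte genes Krt5 and Krt14 had no count. The simple-epithelium keratins Krt8 and Krt18 were at 0.445 to 4.53 CPM in KP tumours and were higher in KPH2 2 to 4 (adjusted p = 0.0299 and 0.0183 by edgeR), with Krt18 at 40.8 CPM or more in every KPH2 tumour. Krt8 was at 262 and 283 CPM in KPH2 2 and 4, at 6.90 CPM in KPH2 3 and, inside the KP range, at 1.44 CPM in KPH2 1. The p-values given for other genes set the difference between the groups against the spread between tumours.

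Of the 10 genes, 7 lie on chromosome 17, and 4 of them, Psmb9, Tap1, Psmb8 and Tap2, occupy 34292 bases from 34182030 to 34216321 (GRCm38.p6). Psmb9 and Tap1 start on opposite strands with 225 bases between the starts, so that stretch is shared by both promoters. Promoter sequences from RefSeq (GRCm38.p6) were found for 8 of the 10 genes, all but Tap2 and Nlrc5. Those of the heavy chains, the light chain and the shared Psmb9-Tap1 stretch are printed. The heavy and light chains varied together from tumour to tumour, and so did Psmb9 and Tap1, as described further on. Psmb8, which varied with Psmb9 and Tap1, is not printed. Any link between promoter letters and levels was not tested. Capitals mark 4 motifs searched on both strands, namely the interferon regulatory factor element AANNGAAA, a κB element (3 G, then A, any base, T, any 2 bases and 2 C), the X box core TGACG and the Y box core ATTGG, whose letters were chosen after the class I promoters had been read. Sequences run 5′ to 3′ on the strand of the gene (on the plus strand for Psmb9-Tap1) and end at the base before a RefSeq start, H2-K1 at chr17:34000348-34000597 (minus), H2-D1 at chr17:35262844-35263093 (plus), B2m at chr2:122147437-122147686 (plus) and Psmb9-Tap1 at chr17:34187331-34187555. The H2-K1 window precedes a transcript start of the promoter table that lies inside the RefSeq span of the gene, whose outermost start is at 34000619, whereas the H2-D1 and B2m windows end at the start of the span.
H2-K1: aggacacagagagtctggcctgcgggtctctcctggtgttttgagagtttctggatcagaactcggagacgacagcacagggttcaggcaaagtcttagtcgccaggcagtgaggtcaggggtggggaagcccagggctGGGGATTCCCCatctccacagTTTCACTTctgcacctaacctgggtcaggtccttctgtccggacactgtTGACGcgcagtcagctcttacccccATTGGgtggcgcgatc
H2-D1: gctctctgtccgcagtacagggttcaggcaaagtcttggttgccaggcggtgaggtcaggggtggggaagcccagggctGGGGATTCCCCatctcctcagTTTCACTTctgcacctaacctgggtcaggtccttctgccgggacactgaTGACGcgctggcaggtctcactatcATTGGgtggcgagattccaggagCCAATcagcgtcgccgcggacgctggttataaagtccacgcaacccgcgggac
B2m: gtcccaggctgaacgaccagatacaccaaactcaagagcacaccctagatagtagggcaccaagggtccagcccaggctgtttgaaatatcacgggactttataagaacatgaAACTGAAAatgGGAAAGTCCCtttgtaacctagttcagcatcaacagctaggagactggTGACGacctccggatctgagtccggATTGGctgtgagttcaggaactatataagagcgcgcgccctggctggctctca
Psmb9-Tap1: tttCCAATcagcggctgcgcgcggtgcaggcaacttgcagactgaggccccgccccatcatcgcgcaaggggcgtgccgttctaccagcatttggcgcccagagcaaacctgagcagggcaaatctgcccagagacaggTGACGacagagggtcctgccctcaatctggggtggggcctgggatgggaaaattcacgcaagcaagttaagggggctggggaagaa

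The promoters of H2-K1, H2-D1 and B2m each held all 4 motifs in the printed 250 bases. Among 32851 promoters of the same length, 21.3% held AANNGAAA, 3.44% the κB element, 17.8% TGACG and 33.8% ATTGG, and 0.0517% held all 4. These belonged to 16 of 27025 genes, among which were the further class I genes H2-Q4, H2-Q7, H2-T22 and H2-M3 and the class II gene H2-Aa. The others were Gm14009, Gm41939, Gm51422, Gm6034, Ndfip2, Oaz1, Trim26 and Utp14a. Because the letters were chosen after the class I promoters had been read, these shares are no test of the motifs. In H2-K1 and H2-D1 the κB element matched on both strands with the 2 matches shifted by 1 base, and these promoters shared an identical run of 47 bases around it. In H2-K1, H2-D1 and B2m a Y box core followed the X box core on the same strand, at −16 to −12 after −41 to −37 in H2-K1. Tap1 and Psmb9 had both cores in their common stretch, but in another arrangement. There they lay on opposite strands, the X box core at −86 to −82 and the Y box core at −222 to −218 from the Tap1 start. Tapbp had the Y box core alone, and none of the 4 motifs was found in the windows of Psmb8 and Psmb10. A match describes letters in a window and is no evidence of binding.

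The heavy chains, which hold the peptide, had lower means in KPH2 2 to 4 with overlapping tumours. H2-K1 (Entrez Gene 14972, chromosome 17, 33996012 to 34000619) stood at 278, 186, 237 and 284 CPM in KP 5, 6, 7 and 8, at 156, 134 and 219 CPM in KPH2 2, 3 and 4, and at 122 CPM in KPH2 1. KPH2 1, 2 and 3 lay below every KP tumour, and KPH2 4 lay above KP 6. KP tumours averaged 246 ± 45.1 CPM (SD, n = 4) against 170 ± 44.2 CPM (SD, n = 3) for KPH2 2 to 4, a log2 fold change of −0.54 (standard error 0.22). H2-D1 (Entrez Gene 14964, chromosome 17, 35263094 to 35267497) stood at 169, 99.0, 163 and 155 CPM in KP 5, 6, 7 and 8, at 99.1, 83.7 and 146 CPM in KPH2 2, 3 and 4, and at 78.5 CPM in KPH2 1. Again KP 6 was the low KP tumour and KPH2 4 the high KPH2 tumour, and the groups overlapped. The H2-D1 means were 146 ± 32.1 CPM (SD, n = 4) and 110 ± 32.5 CPM (SD, n = 3), a log2 fold change of −0.42 (standard error 0.25). In bulk tumour RNA, fewer cells of a type and less RNA per cell cannot be told apart. The authors kept unique alignments only, and class I genes are near copies of each other: 95.4% of the 100-base stretches of the H2-D1 transcript and all of those of H2-K1 occurred in no other gene of the GENCODE transcripts, so mainly H2-D1 counts are uncertain.

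B2m, which encodes β2-microglobulin, the light chain common to all class I molecules, was the most abundant of the 10. B2m (Entrez Gene 12010, chromosome 2, 122147687 to 122153082) stood at 727, 644, 799 and 918 CPM in KP 5, 6, 7 and 8, at 623, 395 and 692 CPM in KPH2 2, 3 and 4, and at 627 CPM in KPH2 1. KPH2 3 had the lowest B2m of all tumours, whereas KPH2 1, the tumour with the lowest heavy chains, was close to KP 6. KP tumours averaged 772 ± 116 CPM (SD, n = 4) against 570 ± 155 CPM (SD, n = 3) for KPH2 2 to 4, with a log2 fold change of −0.44 (standard error 0.23).

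Nlrc5 (Entrez Gene 434341, chromosome 8, 94434335 to 94527272) had a log2 fold change of −0.66 (standard error 0.27), the farthest from 0 of the 10 in the comparison of KP 5 to 8 with KPH2 2 to 4. Tap1 lay farther from 0 with KPH2 1 counted (−0.75 against −0.64 for Nlrc5) and without KP 7 (−0.79 against −0.58), and Nlrc5 was at −0.43 without KPH2 3. It stood at 68.5, 46.0, 76.2 and 69.5 CPM in KP 5, 6, 7 and 8, at 41.6, 26.4 and 55.3 CPM in KPH2 2, 3 and 4, and at 43.4 CPM in KPH2 1. All KPH2 tumours but KPH2 4 lay below every KP tumour, and KPH2 4 lay above KP 6. Its means were 65.1 ± 13.2 CPM (SD, n = 4) and 41.1 ± 14.5 CPM (SD, n = 3).

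**Figure D1:**
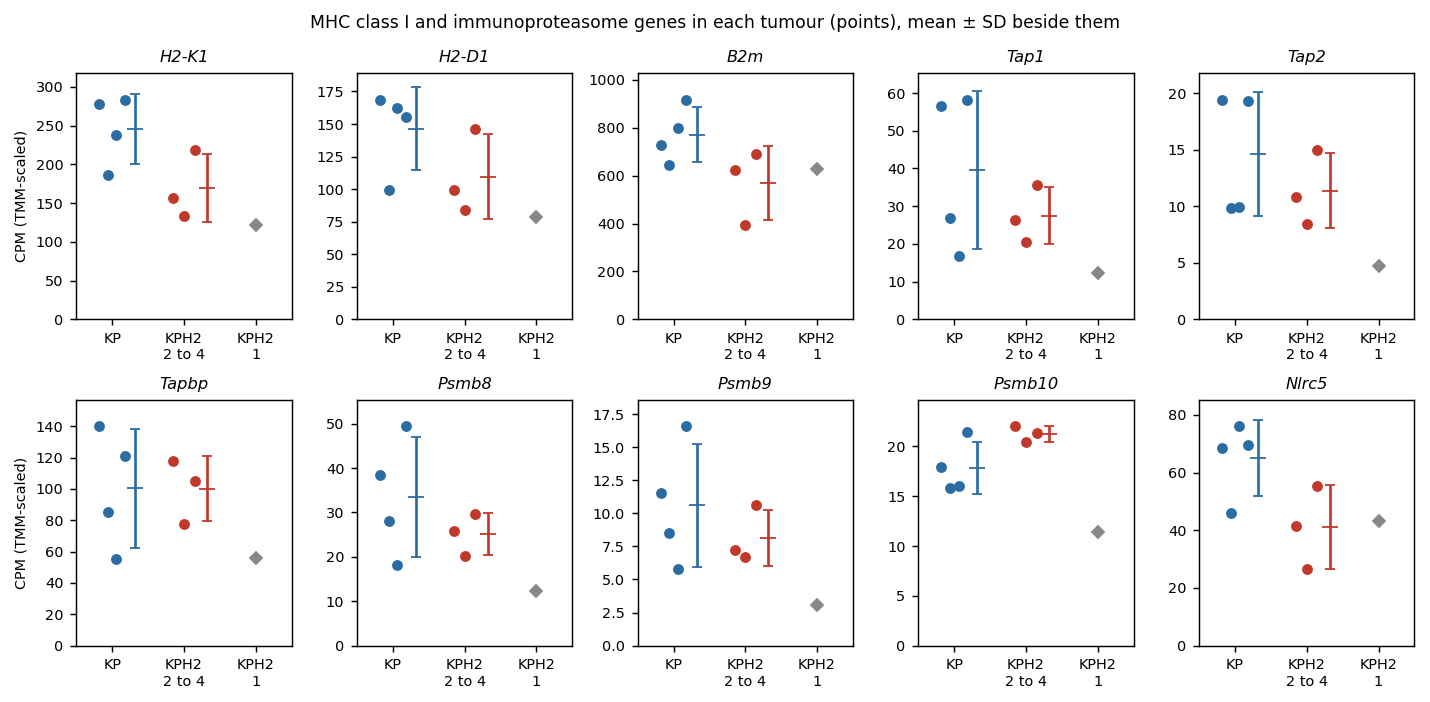
CPM of each gene in each tumour, scaled with TMM, on axes that start at 0. Blue points are KP 5 to 8 and red points KPH2 2 to 4 from left to right, the bar beside each group is its mean ± SD (n = 4 and n = 3), and the grey diamond is KPH2 1, which was below every KP tumour for 9 of the 10 genes.

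The peptide transporter and tapasin differed more among KP tumours than between the groups. Tap1 (Entrez Gene 21354, chromosome 17, 34187556 to 34197225), which encodes a transporter chain, stood at 56.5, 26.9, 16.8 and 58.3 CPM in KP 5, 6, 7 and 8, at 26.5, 20.5 and 35.5 CPM in KPH2 2, 3 and 4, and at 12.2 CPM in KPH2 1. KP 5 and KP 8 stood apart as high, KP 7 was below all of KPH2 2 to 4, and KPH2 1 was the lowest tumour. The log2 fold change was −0.54 with a standard error of 0.44, around means of 39.6 ± 21.0 CPM (SD, n = 4) and 27.5 ± 7.55 CPM (SD, n = 3). Tap2 (Entrez Gene 21355, chromosome 17, 34204479 to 34216321), the other chain, ran from 9.90 to 19.5 CPM in KP tumours and from 8.41 to 14.99 CPM in KPH2 2 to 4, with 4.72 CPM in KPH2 1. Its log2 fold change was −0.37 (standard error 0.34), and KP 5 and KP 8 were again the high tumours. Tapbp (Entrez Gene 21356, chromosome 17, 33919478 to 33929290) had nearly equal means, 100.3 ± 37.8 CPM (SD, n = 4) for KP against 100.1 ± 20.7 CPM (SD, n = 3) for KPH2 2 to 4, for a log2 fold change of −0.01 (standard error 0.31). KP 7 at 55.0 CPM and KPH2 1 at 55.9 CPM were its lowest tumours, and KP 5 at 140 CPM the highest.

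Among the immunoproteasome subunits, Psmb8 and Psmb9 had lower means in KPH2 2 to 4 and Psmb10 a higher one, each with overlapping groups. Psmb8 (Entrez Gene 16913, chromosome 17, 34198195 to 34201454), the chymotrypsin-like immunosubunit, stood at 38.5, 28.0, 18.1 and 49.5 CPM in KP 5, 6, 7 and 8, at 25.8, 20.1 and 29.6 CPM in KPH2 2, 3 and 4, and at 12.2 CPM in KPH2 1. KPH2 2 to 4 lay inside the KP range and KPH2 1 below it. Psmb9 (Entrez Gene 16912, chromosome 17, 34182030 to 34187330), the immunosubunit that replaces Psmb6, stood at 11.5, 8.49, 5.78 and 16.6 CPM in KP 5, 6, 7 and 8, at 7.20, 6.70 and 10.6 CPM in KPH2 2, 3 and 4, and at 3.04 CPM in KPH2 1. The order of the 8 tumours was the same for Psmb9 as for Psmb8 and Tap1, as the rank correlations below show. Psmb9 was the gene with the fewest reads, 38 in KPH2 1 (95% exact Poisson interval 26.9 to 52.2, counting error only). The log2 fold changes were −0.42 (standard error 0.33) for Psmb8 and −0.39 (standard error 0.37) for Psmb9. Without KP 8 they were −0.17 and −0.09.

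Psmb10 (Entrez Gene 19171, chromosome 8, 105935728 to 105938392), the trypsin-like immunosubunit, lies outside the MHC and was the 1 gene of the 10 with a higher mean in KPH2 2 to 4. It stood at 17.9, 15.8, 16.01 and 21.4 CPM in KP 5, 6, 7 and 8, at 22.1, 20.4 and 21.3 CPM in KPH2 2, 3 and 4, and at 11.4 CPM in KPH2 1. KP 8 reached the level of KPH2 2 to 4, and KPH2 1 lay below all other tumours. The means were 17.8 ± 2.60 CPM (SD, n = 4) and 21.3 ± 0.82 CPM (SD, n = 3), for a log2 fold change of 0.25 (standard error 0.17), or 0.08 (standard error 0.23) with KPH2 1 counted in its group.

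The constitutive counterparts had higher means in KPH2 2 to 4, where Psmb8 and Psmb9 had lower ones. Psmb5 stood at 17.9, 10.5, 13.5 and 20.8 CPM in KP 5, 6, 7 and 8, at 25.8, 24.6 and 19.9 CPM in KPH2 2, 3 and 4, and at 19.3 CPM in KPH2 1. Psmb6 stood at 66.7 to 100.5 CPM in KP tumours and at 119 to 142 CPM in KPH2 2 to 4, which did not overlap, with KPH2 1 at 84.3 CPM inside the KP range. Psmb7 was at 87.8 to 117 CPM in KP tumours and at 126 to 151 CPM in all 4 KPH2 tumours, again without overlap. Of all tested genes, 16.9% had no overlap over the 7 tumours and 8.15% over all 8. Their log2 fold changes were 0.58, 0.54 and 0.34 (standard errors 0.25, 0.17 and 0.15), and none passed the threshold (Benjamini-Hochberg adjusted p = 0.277, 0.149 and 0.284 over 14867 genes, quasi-likelihood test of edgeR).

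A ratio of 2 genes within a library is free of library scaling. The ratio of Psmb8 to Psmb5 in counts per kilobase of transcript was 1.19, 1.48, 0.740 and 1.32 in KP 5, 6, 7 and 8, 0.552, 0.451 and 0.821 in KPH2 2, 3 and 4, and 0.351 in KPH2 1. The ratio was lower in KPH2 1, 2 and 3 than in every KP tumour, and in KPH2 4 it lay above KP 7. On the log2 scale the mean ratio was 0.19 ± 0.44 (SD, n = 4) for KP against −0.76 ± 0.44 (SD, n = 3) in KPH2 2 to 4, a difference of −0.96. Only 75.1% of the 100-base stretches of the Psmb5 transcript occurred in no other gene, so the absolute level of this ratio, and whether it lies above or below 1, is uncertain. From the authors' rlog values, which shrink low counts, the difference was −0.58. The log2 ratio of Psmb9 to Psmb6 was −3.88 ± 0.43 (SD, n = 4) for KP against −4.74 ± 0.43 (SD, n = 3) in KPH2 2 to 4, a difference of −0.86, or −0.54 from rlog values. KPH2 4 at −4.25 lay just above KP 7 at −4.29, and KPH2 1 was the lowest at −5.56. For Psmb10 to Psmb7 the log2 ratio was −2.78 ± 0.22 (SD, n = 4) and −2.87 ± 0.08 (SD, n = 3), with KPH2 1 at −3.64. The difference of −0.08 was smaller than the SD of KP tumours and close to that of KPH2 2 to 4.

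**Figure D2:**
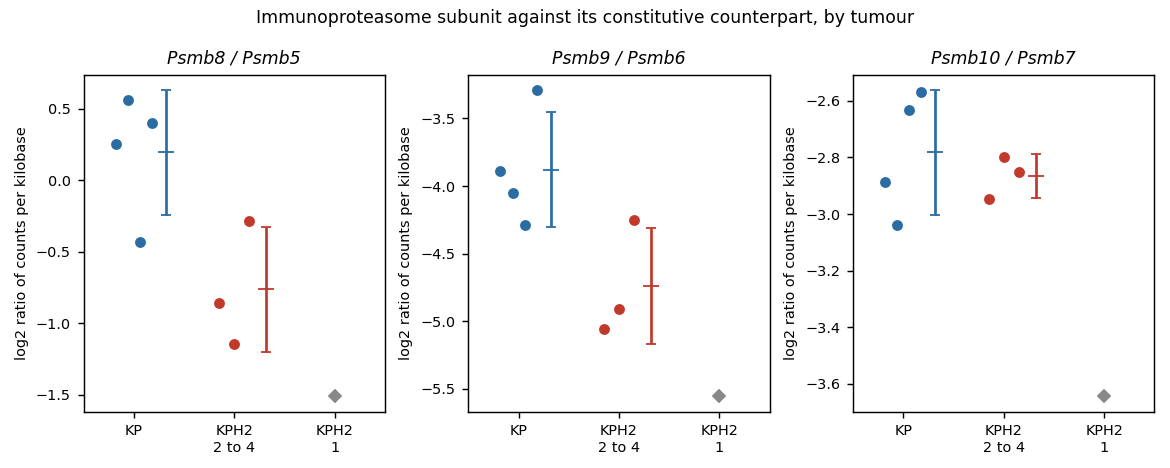
Log2 ratio of counts per kilobase of each immunoproteasome subunit to its constitutive counterpart in each tumour, with the mean ± SD beside each group (KP 5 to 8, n = 4, blue, and KPH2 2 to 4, n = 3, red) and KPH2 1 as a grey diamond. KPH2 1 is lowest in all 3 panels, and in the first 2 panels KPH2 2 and 3 lie below every KP tumour.

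Compared per kilobase of transcript, the levels in KP tumours ran, from high to low, in the order B2m, H2-K1, H2-D1, Tapbp, Psmb8, Psmb10, Tap1, Nlrc5, Psmb9 and Tap2. The means ran from 898 ± 135 CPM per kilobase (SD, n = 4) for B2m through 152 ± 27.9 for H2-K1 and 69.6 ± 15.2 for H2-D1 to 4.26 ± 1.59 for Tap2. B2m, H2-K1 and H2-D1 were separated from each other in KP tumours, while each later neighbour in the order overlapped the next over KP tumours. Tapbp stood at 34.6 ± 13.1 CPM per kilobase, above Tap1 at 13.4 ± 7.10. The constitutive Psmb6 and Psmb7, at 108 ± 18.9 and 93.3 ± 11.8 CPM per kilobase, exceeded Psmb9 and Psmb10 at 7.84 ± 3.43 and 13.6 ± 1.98.

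Over the 10 genes, 9 had a negative log2 fold change in KPH2 2 to 4 against KP tumours, where 52% of all 14867 tested genes had one. Their median was −0.42, beside −0.02 over all tested genes. By the quasi-likelihood test of edgeR with Benjamini-Hochberg adjustment, none of the 10 was under an adjusted p of 0.05, against 1.96% of all tested genes (1.24% higher and 0.72% lower in KPH2), and DESeq2 called none, against 7.93%. At an unadjusted p below 0.05 edgeR counted 2 of the 10, both lower, against 17.8% of all genes (9.26% lower and 8.5% higher). No gene of the 10 had groups that did not overlap, against 16.9% of all genes. With KPH2 1 counted in its group, 9 of 10 were again negative, against 49.1% of 14805 genes, and the median was −0.61. Then 0 of 10 were called, against 0.00675%, 2 were lower at an unadjusted p below 0.05, against 14.7% in either direction and 8.02% lower, and 0 were without overlap, against 8.15%, or 4.39% lower. The genes were chosen with this contrast known, and nothing is read from these counts.

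**Figure D3:**
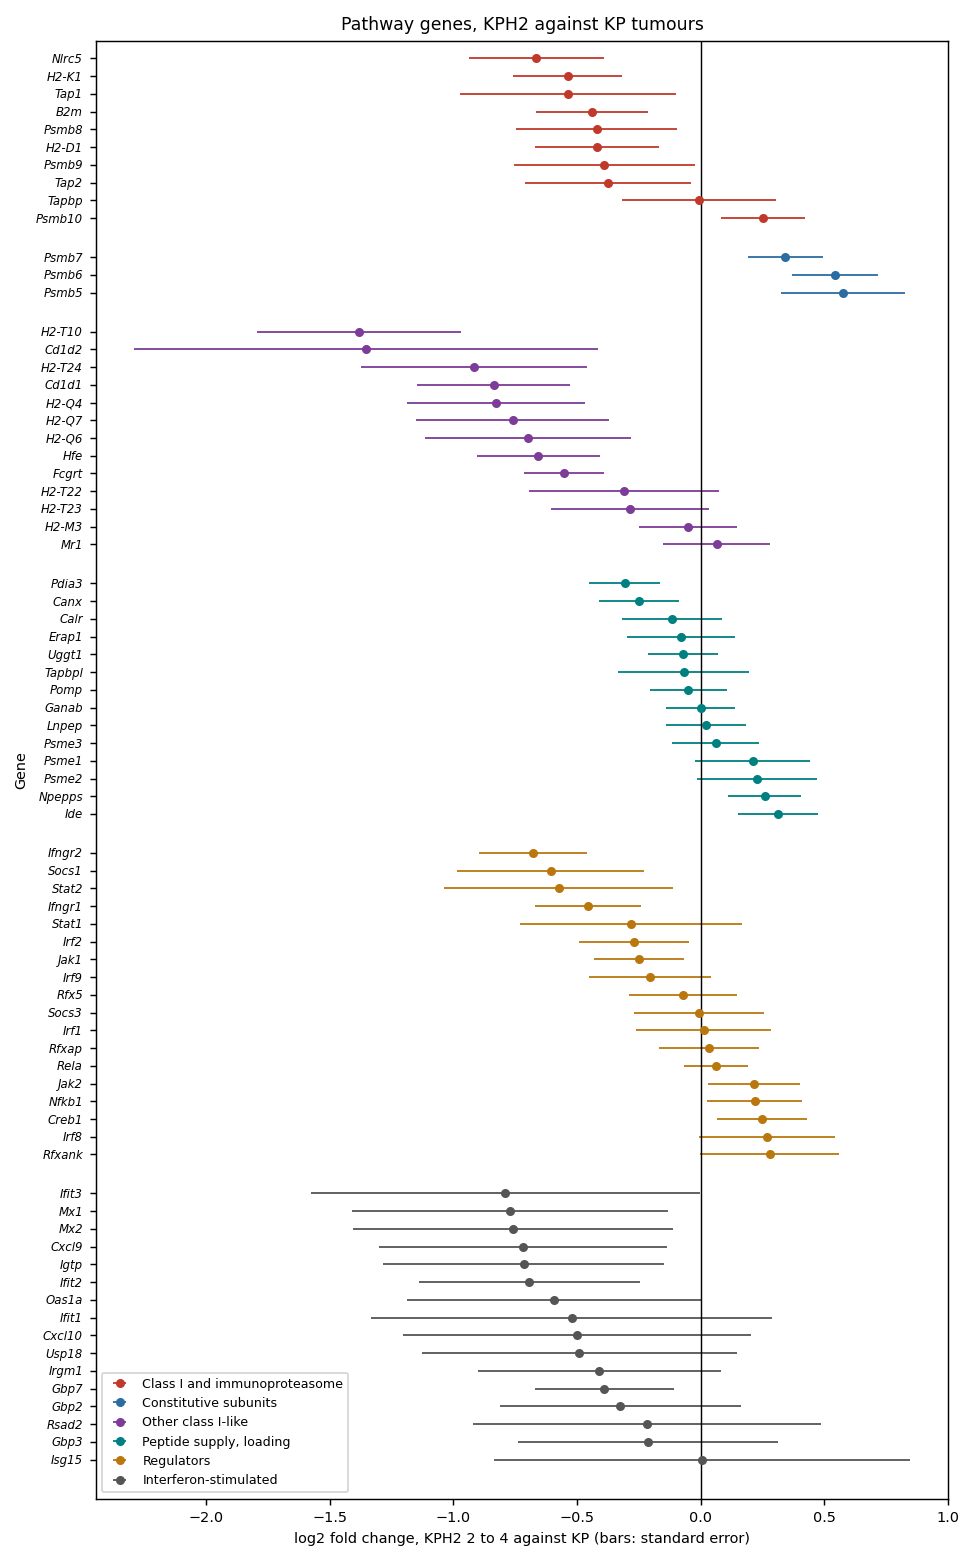
Log2 fold change of KPH2 2 to 4 against KP 5 to 8 by edgeR, with its standard error as a bar, for the 10 genes and the tested genes of 5 other lists. Within the 10 genes the values run from −0.66 for Nlrc5 to 0.25 for Psmb10, while the 3 constitutive subunits all lie above 0.

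Tumours of a group differed widely, and most of the 10 genes ranked them alike. KP 5 or KP 8 was the highest of the 8 tumours for 8 of the 10 genes, and KPH2 1 the lowest for 7. As mean log2 CPM of the 10 genes, KP 5, 6, 7 and 8 stood at 6.14, 5.55, 5.51 and 6.26, KPH2 2, 3 and 4 at 5.57, 5.21 and 5.88, and KPH2 1 at 4.86. KP 6, KP 7 and KPH2 2 were thus close together, KPH2 4 lay between them and the high KP 5 and KP 8, and KPH2 1 was lowest. In the authors' rlog values KPH2 1 was also lowest, at 8.35, and KP 8 highest, at 9.44. In KPH2 1 Psmb9, Tap1, Tap2 and Psmb8 were at 28.7%, 30.9%, 32.2% and 36.5% of their KP means, H2-K1 and H2-D1 at 49.7% and 53.6%, and B2m at 81.3%.

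Across the 8 tumours the log2 CPM of 43 of the 45 pairs among the 10 genes correlated positively, with a median Pearson r of 0.71, given as a description over libraries that share depth and tumour makeup. The values fell into 2 sets that were drawn after they had been seen. Tap1, Tap2, Psmb8 and Psmb9 correlated with each other at 0.94 to 0.98 (median 0.95), and Tap1, Psmb8 and Psmb9 ranked the 8 tumours in the same order (Spearman's rho of 1 for each pair). H2-K1, H2-D1, B2m and Nlrc5 correlated with each other at 0.75 to 0.96 (median 0.87), with 0.96 between the heavy chains and 0.94 between B2m and Nlrc5. Between these sets r ran from 0.41 to 0.88, with a median of 0.60. Without KPH2 1 the medians were 0.95, 0.94 and 0.55, which supports nothing further because the sets were drawn from these tumours. Tapbp, in neither set, had r = 0.91 with Tap1 and 0.88 with Psmb8.

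KP 7 differed between these sets. It was near the top for Nlrc5 (76.2 CPM, the highest), H2-D1 and B2m, and near the bottom for Tap1, Psmb8, Psmb9 and Tapbp. The r between Tapbp and Nlrc5 was 0.19. Psmb10 had r = 0.64 to 0.74 with Tap1, Tap2, Tapbp, Psmb8 and Psmb9, which was 0.27 to 0.54 without KPH2 1, and r of −0.02 and −0.03 with B2m and Nlrc5.

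**Figure D4:**
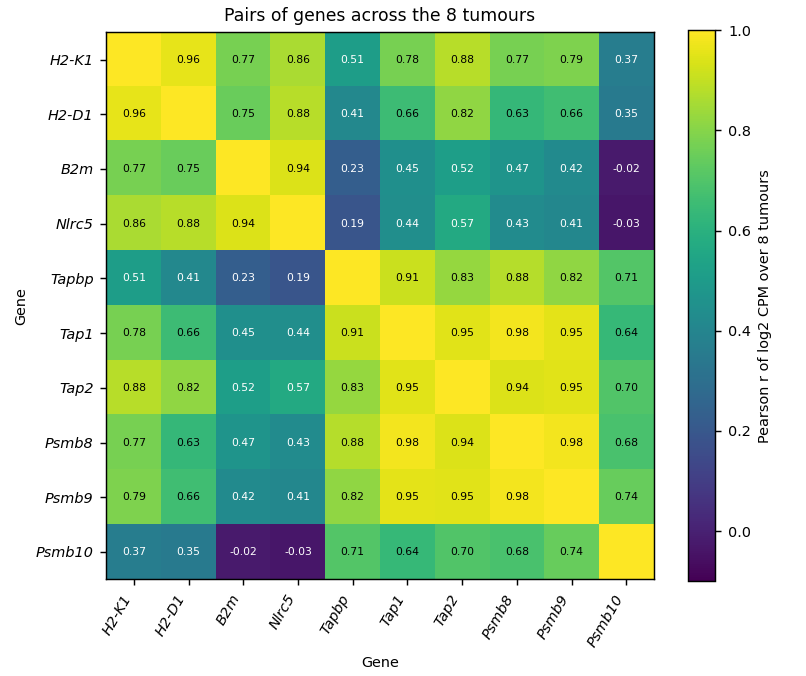
Pearson r of log2 CPM over all 8 tumours for each pair of the 10 genes, printed in each cell. The upper left block (H2-K1, H2-D1, B2m and Nlrc5) runs from 0.75 to 0.96, the block of Tap1, Tap2, Psmb8 and Psmb9 from 0.94 to 0.98, and Psmb10 is near 0 with B2m and Nlrc5.

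Other genes of the class I pathway were taken from lists set by known role. Each list count stands beside the share over all 14867 tested genes. Of these, 1.96% passed in edgeR and 7.93% in DESeq2, and 17.8% had an unadjusted p under 0.05 in edgeR (9.26% lower and 8.5% higher). Of the 24 nonclassical and class I-like genes, 22 were in the table and 13 passed the filter. None of the 13 passed the adjusted p of 0.05 in edgeR, 5 lower and 0 higher had an unadjusted p under 0.05, 12 had negative log2 fold changes with a median of −0.70, and DESeq2 called 2, both lower (Fcgrt and H2-T10, adjusted p = 0.0454 and 0.025 from DESeq2). Fcgrt, which encodes the neonatal Fc receptor, was at 96.6 to 137 CPM in KP tumours and 70.9 to 84.3 CPM in the 4 KPH2 tumours, and the groups did not overlap (log2 fold change −0.55 ± 0.16 SE, adjusted p = 0.126 by edgeR). H2-T10, a nonclassical heavy chain read by γδ T cells, stood at 17.8, 9.48, 6.82 and 21.7 CPM in KP 5, 6, 7 and 8, at 5.67, 4.40 and 6.09 CPM in KPH2 2, 3 and 4, and at 2.32 CPM in KPH2 1 (log2 fold change −1.38 ± 0.41 SE, adjusted p = 0.132 by edgeR). These groups did not overlap either, where 8.15% of all tested genes had no overlap over the 8 tumours. The counts of H2-T10 are uncertain because stretches of the H2-T22 transcript also occur in H2-T10.

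Genes that trim, supply and load peptides had log2 fold changes on both sides of 0. Of 14 genes in the list, all tested, 6 had positive and 8 negative log2 fold changes with a median of −0.03, and none passed in edgeR or DESeq2, and none had an unadjusted p under 0.05 in edgeR. Pdia3, the oxidoreductase ERp57 of the loading complex, was at −0.31 ± 0.14 SE on the log2 scale (adjusted p = 0.31 by edgeR), and the peptidase Ide at 0.31 ± 0.16 SE (adjusted p = 0.36 by edgeR). Psme1 and Psme2, the interferon-inducible proteasome activator subunits, were at 0.21 and 0.23.

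Among 18 regulators of class I genes, 10 log2 fold changes were negative and 8 positive with a median of −0.04. None passed in edgeR or DESeq2, and 1 had an unadjusted p under 0.05. That gene was Ifngr2, a chain of the interferon-γ receptor, at 112 to 188 CPM in KP tumours and 68.3 to 108 CPM in the 4 KPH2 tumours, without overlap (log2 fold change −0.68 ± 0.22 SE, adjusted p = 0.157 by edgeR). Over all 8 tumours, 8.15% of all tested genes had no overlap. The partner chain Ifngr1 was at −0.46 ± 0.21 SE on the log2 scale (adjusted p = 0.313 by edgeR). The interferons themselves were at the limit of detection, since none of the 4 listed genes in the table passed the filter and Ifng had at most 6 reads in any tumour.

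Of 16 interferon-stimulated genes, 15 had negative log2 fold changes with a median of −0.51, and none passed in edgeR or DESeq2 or had an unadjusted p under 0.05. Ifit2, an antiviral RNA-binding protein, and Gbp7, a guanylate-binding protein, had the smallest p (log2 fold changes −0.69 and −0.39, standard errors 0.45 and 0.28, adjusted p = 0.475 and 0.521 by edgeR). The mean log2 CPM of the list was 6.18, 4.90, 3.84 and 5.62 in KP 5, 6, 7 and 8, 5.27, 3.47 and 5.24 in KPH2 2, 3 and 4, and 4.14 in KPH2 1. KP 5 and KP 8 were the highest tumours and KPH2 3 and KP 7 the lowest. Over the 8 tumours these means correlated with the mean of the 10 genes at r = 0.81 (Spearman's rho 0.88), and at 0.90 without KPH2 1 and KP 8, the tumours farthest from the median of the 10 genes. The same correlation was 0.87 for the nonclassical list and 0.84 for the regulators, which became 0.59 and 0.58 without these tumours, and 0.55 for peptide supply and loading, which became 0.22. By set, the interferon-stimulated means had r = 0.60 with H2-K1, H2-D1, B2m and Nlrc5 and 0.80 with Tap1, Tap2, Psmb8 and Psmb9.

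**Figure D5:**
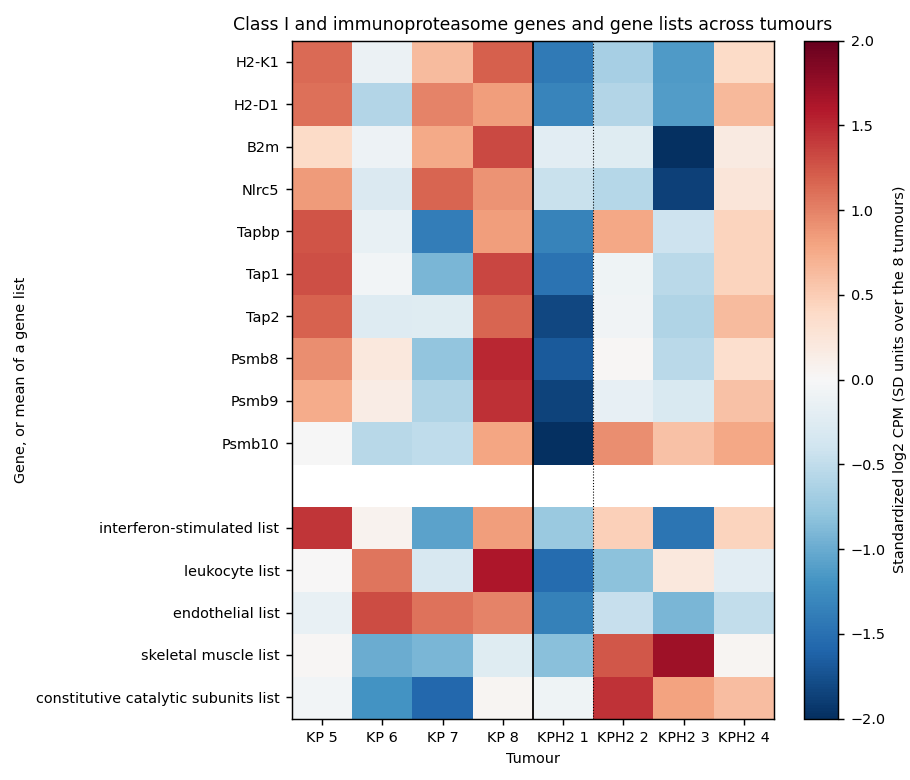
Log2 CPM of each gene in each tumour, standardized over the 8 tumours (colour, in SD units, limited to 2 SD either way, with no prior count), above the standardized means of 5 gene lists, with a solid line between KP and KPH2 tumours and a dotted line after KPH2 1. KP 5 and KP 8 are high and KPH2 1 low over most of the 10 genes, whereas the skeletal muscle list is high in KPH2 2 and 3.

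Markers of leukocytes and of vessels had lower mean levels in KPH2 tumours. The summed level of 19 leukocyte markers was 2020 to 3560 CPM in KP tumours, 1606 to 2163 CPM in KPH2 2 to 4 and 1969 CPM in KPH2 1. Of 17 tested leukocyte markers, 16 had negative log2 fold changes (median −0.59), none passed in edgeR, 6 were at an unadjusted p below 0.05 (all lower) and DESeq2 called 1. Over all tested genes, 9.26% were lower at an unadjusted p below 0.05 in edgeR and DESeq2 called 7.93%. Laptm5, a lysosomal membrane protein of blood cells, and Ptprc, which encodes CD45, were at −0.43 and −0.74 (standard errors 0.13 and 0.27, adjusted p = 0.131 and 0.208 by edgeR). T cell markers were low, with Cd3e at no more than 2.26 CPM and Cd3g at no more than 3.55 CPM in any tumour. Cd8a, a chain of the coreceptor for class I, was at 3.26 to 6.26 CPM in KP tumours, 1.13 to 5.60 CPM in KPH2 2 to 4 and 0.879 CPM in KPH2 1 (log2 fold change −0.66 ± 0.53 SE, adjusted p = 0.572 by edgeR). Cd4, the leukocyte marker with a positive log2 fold change (0.36 ± 0.40 SE, adjusted p = 0.69 by edgeR), reached 9.24 CPM in KPH2 4. The 8 endothelial markers summed to 356 to 581 CPM in KP tumours and to 253 to 318 CPM in the 4 KPH2 tumours, without overlap. All 8 had negative log2 fold changes with a median of −0.67. None passed in edgeR, 5 had an unadjusted p under 0.05, against 9.26% of all tested genes that were lower, and DESeq2 called 4, against 7.93%. Kdr, the VEGF receptor, and Esam, an endothelial adhesion molecule, had log2 fold changes of −0.72 and −0.86 (standard errors 0.18 and 0.24, adjusted p = 0.0818 and 0.118 by edgeR). The mean log2 CPM of the leukocyte and endothelial lists correlated with that of the 10 genes at r = 0.64 and 0.51 over the 8 tumours, and at −0.14 and −0.01 without KPH2 1 and KP 8. Over the 8 tumours r was 0.38 and 0.63 with H2-K1, H2-D1, B2m and Nlrc5, and 0.71 and 0.44 with Tap1, Tap2, Psmb8 and Psmb9.

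Skeletal muscle markers had higher mean levels in KPH2 2 to 4 than in KP tumours. The summed level of 12 skeletal muscle markers was 489 to 1102 CPM in KP tumours, 1203 to 5429 CPM in KPH2 2 to 4 and 458 CPM in KPH2 1, and all 12 had positive log2 fold changes with a median of 2.22. In edgeR 2 of the 12 passed the adjusted p of 0.05 (Eno3 by 2.98 and Neb by 2.23 on the log2 scale, adjusted p = 0.00922 and 0.043 by edgeR), all 12 were at an unadjusted p below 0.05, and DESeq2 called 10. Over all tested genes 1.24% passed as higher in edgeR, 8.5% were higher at an unadjusted p below 0.05, and DESeq2 called 7.93%. With KPH2 1 counted, 0 of the 12 passed (adjusted p = 0.159 for Eno3 and 0.243 for Neb by edgeR) and 7 were at an unadjusted p below 0.05. Of the 8 mesenchymal genes 7 had negative log2 fold changes, the summed levels of the groups overlapped, and Pdgfra alone passed, where it fell by 2.02 on the log2 scale (adjusted p = 0.0183 by edgeR), while Thy1 was at −1.20 (adjusted p = 0.228 by edgeR). With KPH2 1 counted, Pdgfra was at −1.54 and did not pass (adjusted p = 0.16 by edgeR). The part of these cell type differences in the levels of the 10 genes was not tested.

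The genes whose log2 CPM followed the mean standardized level of the 10 genes most closely over the 8 tumours, of 14795 others, were Cyp3a13, Trim56, Limk1, Gbp7 and Stat5a. Their Pearson r was 0.97, 0.95, 0.95, 0.95 and 0.94, and 0.95, 0.89, 0.88, 0.90 and 0.87 without KPH2 1 and KP 8. Trim56, a ubiquitin ligase of antiviral signalling, stood at 45.0, 37.3, 39.9 and 47.6 CPM in KP 5, 6, 7 and 8, at 37.8, 36.4 and 46.4 CPM in KPH2 2, 3 and 4, and at 29.3 CPM in KPH2 1. Gbp7 ran from 39.6 CPM in KPH2 1 to 120 CPM in KP 8. Cyp3a13, a cytochrome P450, never exceeded 3.32 CPM, so its values rest on few reads. Limk1, a kinase that acts on actin turnover, and Stat5a, a transcription factor of cytokine receptors, had their lowest values in KPH2 1 as well, at 22.9 and 5.67 CPM. None of the 5 passed the test between the groups (adjusted p from 0.488 to 0.844 by edgeR).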

How the data were processed

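RNA from FFPE sections of 8 UPS tumours was depleted of ribosomal RNA and sequenced as stranded libraries. A further allele that both groups carried is not reported here. Per the labels and the study's methods, the authors aligned reads to GRCm38 with STAR 2.4 and deposited raw counts of unique alignments per RefSeq gene, made with HTSeq 0.6.1. The authors also deposited log2 values from the rlog transformation of DESeq2 1.6, which shrinks low counts toward a gene's mean, for 7 and for 8 tumours. Counts were tested in R 4.3.3 with edgeR 4.0.16 (TMM, minimum count 10, minimum total count 15, robust quasi-likelihood test, no covariates), with Benjamini-Hochberg adjusted p under 0.05 as the threshold. The standard error of a log2 fold change is its size divided by the square root of the F statistic. CPM are per 1e+06 counts of the TMM library size over all 8 tumours, and log2 CPM used a prior count of 2. List means used genes with a mean of at least 1 CPM. Transcript lengths are those of the longest GENCODE vM21 transcript with a RefSeq accession, and positions come from RefSeq GRCm38.p6. The test was checked on simulated counts.

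The 10 genes and the gene lists were chosen with earlier results of these data known. All 10 genes and the 3 constitutive subunits are named, and from each other list the genes past the threshold and the 2 with the smallest p. Other list members are given for their role and were chosen after their values were seen. The 5 genes with the highest correlation to the mean standardized level of the 10 are named as well. Alternatives for the fold changes took in KPH2 1, left out each tumour in turn, scaled by DESeq2's size factors or by upper quartiles, dropped the filter or raised it to a mean count of 50, dropped the robust estimates, or used DESeq2 1.42.0. The subunit ratios were recomputed over all 8 tumours, without each tumour and from the authors' rlog values.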

Additional observations from a re-analysis of the deposited data

Results flagged for a closer look

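In groups of 4 tumours, a highest or lowest tumour was marked when its gap to the nearest other tumour, divided by the range of the group, was above Dixon's critical value of 0.829. Of 34 groups examined on the log2 scale, 3 held such a tumour, where chance alone marks about 1 group in 20. H2-D1 was low in KP 6 among KP tumours (ratio 0.843), at 99.0 CPM beside 155 to 169 CPM in the others. Psmb10 was low in KPH2 1 among KPH2 tumours (0.882), at 11.4 CPM beside 20.4 to 22.1 CPM. Psmb7, the constitutive counterpart of Psmb10, was low in KP 7 among KP tumours (0.861), at 87.8 CPM beside 113 to 117 CPM.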

How the results depend on the processing

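Under the 14 alternatives the sign of the log2 fold change was kept by all of the 10 genes but Tapbp, and the size often was not. Without KP 8 Psmb9 moved from −0.39 to −0.09, Psmb8 from −0.42 to −0.17, Tap1 from −0.54 to −0.29 and Tap2 from −0.37 to −0.22. Without KP 5 Tap1 was at −0.31 and Tap2 at −0.20. Without KPH2 3 B2m moved from −0.44 to −0.23, H2-D1 from −0.42 to −0.26, Nlrc5 from −0.66 to −0.43 and Tap2 to −0.20. Without KPH2 4 H2-D1 was at −0.68, Tap2 at −0.62 and Psmb9 at −0.62, and without KP 7 Psmb9 was at −0.59. With KPH2 1 Tap2 was at −0.60, Psmb9 at −0.63 and Psmb10 at 0.08, down from 0.25. Tapbp, at −0.01, turned to 0.21 without KP 5, 0.09 without KP 8 and 0.15 without KPH2 3, and was at −0.21 without KP 7 and −0.17 with KPH2 1. The median log2 fold change of the 10 ran from −0.62 without KPH2 4 to −0.26 without KP 8 or KPH2 3, and was −0.61 with KPH2 1, while the median of all genes stayed between −0.03 and 0.01. Over all genes, 292 passed in the fit of 7 tumours, 1 with KPH2 1 included, 1179 in DESeq2 and 55 to 349 with a tumour left out (55 without KPH2 2). DESeq2 called 2 nonclassical class I genes where edgeR called none, and the counts for the constitutive subunits, peptide supply, regulator and interferon-stimulated lists were 0 under each alternative run. The difference in log2 ratio ran from −1.20 to −0.77 for Psmb8 to Psmb5, from −1.10 to −0.66 for Psmb9 to Psmb6 and from −0.17 to −0.01 for Psmb10 to Psmb7 with a tumour left out, and the last was −0.28 with KPH2 1. The cause of these shifts was not tested. No paired analysis was made because KP and KPH2 tumours came from different mice and the labels name no pairs.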
